A study of Mus musculus with 6 samples.

Results

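Levels of 10 genes of the inducible heat shock response were followed in splenic CD8+ T cells of mice whose tumor had been treated by microwave ablation (MWA), with or without 2-deoxy-D-glucose (2DG). They were the HSP70 genes Hspa1a, Hspa1b and Hspa8, the HSP110 gene Hsph1, the HSP40 genes Dnajb1 and Dnaja1, the co-chaperone gene Bag3, the HSP90 gene Hsp90aa1, and the mitochondrial chaperonin genes Hspd1 and Hspe1. All 10 were found among the 28773 gene IDs of the deposited files. They were picked as a family with the fold changes of these same 6 samples already known, so their own levels and fold changes are given as a description and without a test. Tests were applied only to genes outside the 10. They came from a limma fit over all 12444 genes with a mean of at least 1 FPKM. FPKM stands for fragments scaled to transcript length and to the fragments mapped. Limma fits a linear model and draws each gene's estimate of spread toward a trend shared by all genes.

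Bulk RNA-seq was available for 3 MWA+PBS samples, numbered 1 to 3, and 3 MWA+2DG samples, numbered 4 to 6, all taken on day 35. Both groups had the ablation of the primary tumor. The MWA+2DG mice were then injected with 2DG, a glucose analogue that blocks glycolysis, and the MWA+PBS mice with the same volume of the PBS vehicle, and by the study's methods the injections had ended some days before the spleens were taken. Spleens were crushed through a strainer, erythrocytes were lysed and CD8+ T cells were enriched with an isolation kit. All mice of the study were female. The study's methods give the strains and ages of its mice, but the labels do not say which strain and tumor line these 6 samples came from, whether a sample held cells of a single mouse, or how isolation and sequencing were batched. Treatment and batch therefore cannot be told apart, and p-values weigh a group difference only against the spread of these samples within groups.

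Heat shock proteins are molecular chaperones that bind unfolded proteins and help them to fold, and that hold or release client proteins at the cost of ATP. In resting cells the heat shock transcription factor HSF1 is held inactive by chaperones, and when unfolded proteins accumulate it is released, forms trimers and binds heat shock elements, which are alternating repeats of the bases GAA and their complement TTC. Hspa1a and Hspa1b are the strictly inducible HSP70 genes, whereas Hspa8, Hspd1 and Hspe1 are also used by unstressed cells. T cells raise several of these chaperones when they are activated and proliferate.

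The library facts were examined first. Group values are mean ± SD (n = 3) unless marked SE, and differences are MWA+2DG minus MWA+PBS. Between 22414 and 23340 genes were above 0 in a sample, and the total FPKM was between 291803 and 313257. Mitochondrially encoded genes held 21.4% to 22.8% of the FPKM in MWA+PBS against 19.4% to 20.7% in MWA+2DG. The read depth is unknown, because whole reads could not be recovered from the values. Cd8a, the co-receptor that defines the labelled cells, was 225.8 to 239.3 FPKM in MWA+PBS against 359.0 to 377.1 in MWA+2DG. Transcripts of other cell types were present in both groups and moved with the groups, and their values are given after the chaperones.

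The promoters of the inducible genes were inspected for heat shock elements, since these are the letters HSF1 binds. Promoter sequences from RefSeq (GRCm38.p6, 250 bases before the annotated start) were found for 8 of the 10 genes, and Hspa8 and Hsp90aa1 had no entry. The search was for the words GAANNTTC and TTCNNGAA, where N is any base. Each word is its own reverse complement, so both strands were covered. At least 1 of them was found at any listed start in 6 of the 8 genes (75.0%) and in 3932 of all 27025 genes with a promoter entry (14.5%). Genes of the wider chaperone system held it in 13 of 75 (17.3%). The 6 genes are not independent, since Hspa1a and Hspa1b are copies of each other and Hspd1 and Hspe1 share a stretch between their starts. Dnajb1 and Bag3 had no match, which says only that these letters are not in the window. The upstream 250 bases of Hspa1a and Hspa1b are shown because these genes had the largest differences of the family. They are written 5′ to 3′ up to the base before the start, with the word in capitals.
Hspa1a, chr17:34972157-34972406, minus strand: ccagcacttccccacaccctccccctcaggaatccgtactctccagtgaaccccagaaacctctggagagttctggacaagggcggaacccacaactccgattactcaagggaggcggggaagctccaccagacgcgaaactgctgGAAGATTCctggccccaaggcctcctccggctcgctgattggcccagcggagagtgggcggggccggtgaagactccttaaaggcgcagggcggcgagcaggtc
Hspa1b, chr17:34959239-34959488, minus strand: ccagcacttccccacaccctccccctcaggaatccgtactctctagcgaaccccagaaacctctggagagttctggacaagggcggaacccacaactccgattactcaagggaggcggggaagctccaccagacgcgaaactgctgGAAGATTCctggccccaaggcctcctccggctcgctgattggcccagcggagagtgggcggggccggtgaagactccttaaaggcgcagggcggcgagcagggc

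In both genes the word began 104 bases before the start. The windows differed at 3 positions, counted from 1 at the 5′ end and written with the Hspa1a base first, namely C44T, T47C and T249G, and none lay in the word. For the chaperonin pair and for Hsph1 and Dnaja1, 30 bases are shown because they hold the match. Hspd1 and Hspe1 lie head to head, so the same stretch is printed on the strand of each.
Hspd1, chr1:55088053-55088082, minus strand: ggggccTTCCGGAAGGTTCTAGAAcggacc
Hspe1, chr1:55088053-55088082, plus strand: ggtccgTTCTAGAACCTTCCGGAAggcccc
Hsph1, chr5:149636351-149636380, minus strand: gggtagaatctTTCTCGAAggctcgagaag
Dnaja1, chr4:40722333-40722362, plus strand: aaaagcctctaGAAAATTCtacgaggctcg

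The stretch shared by Hspd1 and Hspe1 held overlapping words that together make at least 3 alternating units, the form that an HSF1 trimer contacts. Such a run of 3 units was found in 139 of the 27025 genes (0.514%), in 2 of the 8 chaperones, which are this pair, and in 1 of the 75 other genes of the system (1.33%). Hsph1 and Dnaja1 held a single word each.

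All 10 chaperones were lower in MWA+2DG than in MWA+PBS, and in each of them every MWA+2DG sample was below every MWA+PBS sample. Groups separated in this direction in 2722 of the 12444 tested genes (21.9%). As the 10 were chosen on this difference, nothing is read from their count. In bulk samples such as these, fewer cells of a type and less RNA per cell cannot be told apart. Their fold differences were not alike. The ratio of mean FPKM in MWA+PBS to that in MWA+2DG ran from 1.62 in Hspe1 to 63.2 in Hspa1b. On the log2(FPKM + 1) scale, the median difference of the 10 was -1.44, against 0.05 over all tested genes.

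**Figure D1:**
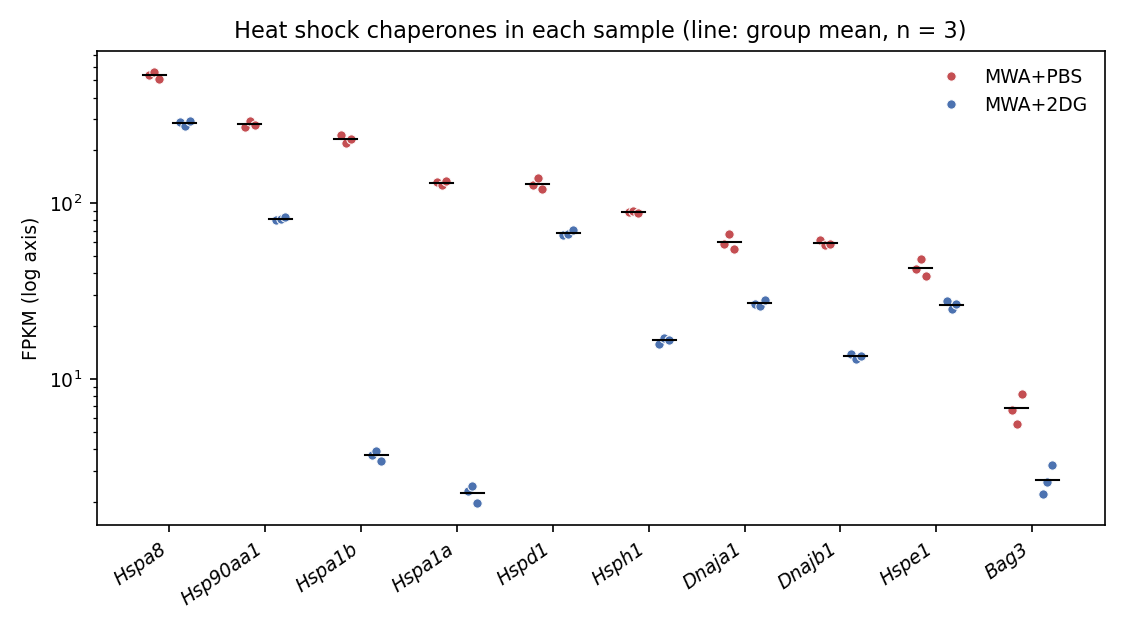
FPKM of the 10 chaperone genes in each of the 6 samples on a log axis, ordered by their mean in MWA+PBS, with points for samples and a line for the mean of 3. The groups do not overlap in any of the 10, and Hspa1b and Hspa1a fall from the upper part of the family in MWA+PBS to 3.68 and 2.25 FPKM in MWA+2DG.

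The inducible HSP70 genes differed most. Hspa1b (ENSMUSG00000090877) was 244.2, 219.9 and 232.8 FPKM in MWA+PBS replicates 1, 2 and 3, and 3.68, 3.92 and 3.43 FPKM in MWA+2DG replicates 4, 5 and 6. Hspa1a (ENSMUSG00000091971) was 131.9, 126.7 and 133.3 FPKM in MWA+PBS, and 2.32, 2.47 and 1.96 FPKM in MWA+2DG. Every MWA+PBS sample was high and every MWA+2DG sample was low in both genes, with no sample in between. The log2 difference was -5.64 ± 0.06 (SE) for Hspa1b and -5.34 ± 0.07 (SE) for Hspa1a on the log2(FPKM + 1) scale.

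These proteins take part in refolding and are nearly absent from many resting cells. The transcripts of Hspa1a and Hspa1b are 99.1% identical over 2200 aligned bases, and how the study's quantification shared reads between them is not stated, so their separate values are uncertain. Their sum was 362.9 ± 15.0 FPKM in MWA+PBS against 5.93 ± 0.504 in MWA+2DG (mean ± SD, n = 3), a 61.2-fold difference. The ratio of Hspa1a to Hspa1b was 0.540 to 0.576 in MWA+PBS against 0.571 to 0.630 in MWA+2DG, which overlap. An antisense gene that overlaps Hspa1a, Gm20481, was 0.03 FPKM in MWA+PBS replicate 1 and 0 elsewhere.

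Hspa8 (ENSMUSG00000015656), the constitutive HSC70 of the cytosol, was 540.8, 556.7 and 512.9 FPKM in MWA+PBS, and 289.4, 275.5 and 295.3 FPKM in MWA+2DG. It was the highest of the 10 in every sample, and its groups were far apart relative to the spread within them. The log2 difference of Hspa8 was -0.90 ± 0.06 (SE), so its 1.87-fold difference was among the smaller of the family. Hspa8 was 2.20 to 2.53 times the level of Hspa1b in MWA+PBS against 70.3 to 86.1 times in MWA+2DG.

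Hsph1 (ENSMUSG00000029657) encodes HSP105, an HSP110 protein that exchanges the nucleotide of HSP70 and keeps aggregates soluble. It was 89.1, 90.5 and 88.0 FPKM in MWA+PBS, and 15.9, 17.0 and 16.8 FPKM in MWA+2DG. With a coefficient of variation of 1.42% in MWA+PBS, Hsph1 was the steadiest of the 10 in that group. Its log2 difference was -2.36 ± 0.05 (SE), a 5.38-fold ratio of the means.

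The HSP40 proteins deliver clients to HSP70 and stimulate its ATPase through their J domain. Dnajb1 (ENSMUSG00000005483), the stress-inducible member, was 61.9, 57.9 and 59.1 FPKM in MWA+PBS, and 13.8, 13.0 and 13.5 FPKM in MWA+2DG. Dnaja1 (ENSMUSG00000028410) was 58.5, 66.8 and 54.6 FPKM in MWA+PBS, and 26.6, 26.1 and 28.2 FPKM in MWA+2DG. Both genes were at a like level in MWA+PBS, where the ratio of Dnajb1 to Dnaja1 was 0.867 to 1.08, and apart in MWA+2DG, where it was 0.480 to 0.521. The log2 difference was -2.07 ± 0.05 (SE) for Dnajb1 and -1.12 ± 0.08 (SE) for Dnaja1.

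Bag3 (ENSMUSG00000030847), a nucleotide exchange factor that links HSP70 to small heat shock proteins and to autophagy, was the lowest of the family in MWA+PBS. It was 6.70, 5.52 and 8.20 FPKM in MWA+PBS, and 2.22, 2.58 and 3.24 FPKM in MWA+2DG. The replicates of Bag3 were the least alike of the 10, with a coefficient of variation of 19.7% in MWA+PBS and 19.3% in MWA+2DG. Its log2 difference was -1.08 ± 0.15 (SE), which understates the 2.54-fold ratio of the means because the pseudocount of 1 is large beside these levels.

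Hsp90aa1 (ENSMUSG00000021270), the inducible cytosolic HSP90 that matures kinases and steroid receptors, was 272.2, 293.6 and 278.0 FPKM in MWA+PBS, and 80.5, 81.2 and 83.7 FPKM in MWA+2DG. It was the second most abundant of the 10 in both groups. The log2 difference of Hsp90aa1 was -1.77 ± 0.05 (SE), a 3.44-fold ratio of the means. Its constitutive partner Hsp90ab1, which is outside the 10, was 851.7 to 913.8 FPKM in MWA+PBS against 490.6 to 516.7 in MWA+2DG, a log2 difference of -0.81 ± 0.06 (SE, limma adjusted p = 6.45e-05). The ratio of Hsp90aa1 to Hsp90ab1 was 0.298 to 0.326 in MWA+PBS against 0.156 to 0.166 in MWA+2DG, without overlap. Both genes were thus lower, the inducible gene by more.

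Hspd1 and Hspe1 encode HSP60 and HSP10, the barrel and lid of the chaperonin of the mitochondrial matrix. Hspd1 (ENSMUSG00000025980) was 127.3, 140.0 and 121.0 FPKM in MWA+PBS, and 66.1, 67.3 and 70.9 FPKM in MWA+2DG. Hspe1 (ENSMUSG00000073676) was 42.4, 48.0 and 38.5 FPKM in MWA+PBS, and 27.7, 25.1 and 26.9 FPKM in MWA+2DG. The log2 differences were -0.92 ± 0.07 (SE) for Hspd1 and -0.67 ± 0.09 (SE) for Hspe1, and no chaperone of the 10 differed by less than Hspe1. The ratio of Hspe1 to Hspd1 was 0.318 to 0.343 in MWA+PBS against 0.373 to 0.419 in MWA+2DG.

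Processed copies exist for this pair. Hspd1-ps3, whose sequence is 99.0% identical to Hspd1 over 1722 bases, was 6.58 to 7.66 FPKM in MWA+PBS against 3.83 to 4.01 in MWA+2DG. Its ratio to Hspd1 was 0.0523 to 0.0547 and 0.0566 to 0.0596 in these groups, so it followed its parent and reads of the parent cannot be told apart from its own. The other listed copies, Hspd1-ps4, Hspe1-ps2, Hspe1-ps3 and Hspe1-ps5, were under 1 FPKM in each sample.

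The order of the levels also differed between the groups. In MWA+PBS the means ran from Hspa8 through Hsp90aa1, Hspa1b, Hspa1a, Hspd1, Hsph1, Dnaja1, Dnajb1 and Hspe1 to Bag3. The neighbours Hspa1a and Hspd1 overlapped in their sample values there, and so did Dnaja1 and Dnajb1. In MWA+2DG the order was Hspa8, Hsp90aa1, Hspd1, Dnaja1, Hspe1, Hsph1, Dnajb1, Hspa1b, Bag3 and Hspa1a, with overlap between Dnaja1 and Hspe1 and between Bag3 and Hspa1a. Hspa1b thus went from rank 3 to rank 8, and Hspa1a from rank 4 to rank 10.

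Replicates within MWA+PBS also sorted the family. Replicate 2 was the highest of its group for 6 of the 10, namely Hsph1, Dnaja1, Hsp90aa1, Hspa8, Hspd1 and Hspe1, and the lowest for the other 4, Hspa1a, Hspa1b, Dnajb1 and Bag3. In none of the 10 did the spread within a group close the gap between the groups, which for Hspe1, the gene with the smallest ratio, ran from 27.7 FPKM in the highest MWA+2DG sample to 38.5 FPKM in the lowest MWA+PBS sample.

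Summed over the 10 genes, the level was 1575, 1606 and 1526 FPKM in MWA+PBS, and 528.2, 514.2 and 543.9 FPKM in MWA+2DG. As a share of the total FPKM this was 0.508% to 0.513% and 0.173% to 0.186%. The log2 ratio of the summed means was -1.57. The makeup of the sum changed with it, since Hspa1a and Hspa1b together held 23.2% ± 1.35 of it in MWA+PBS and 1.12% ± 0.126 in MWA+2DG (SD, n = 3). Hspa8 held 34.2% ± 0.548 and 54.2% ± 0.609. The chaperonin pair held 11.0% ± 0.653 and 17.9% ± 0.123, whereas the HSP40 pair held 7.62% ± 0.159 and 7.64% ± 0.0417.

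**Figure D2:**
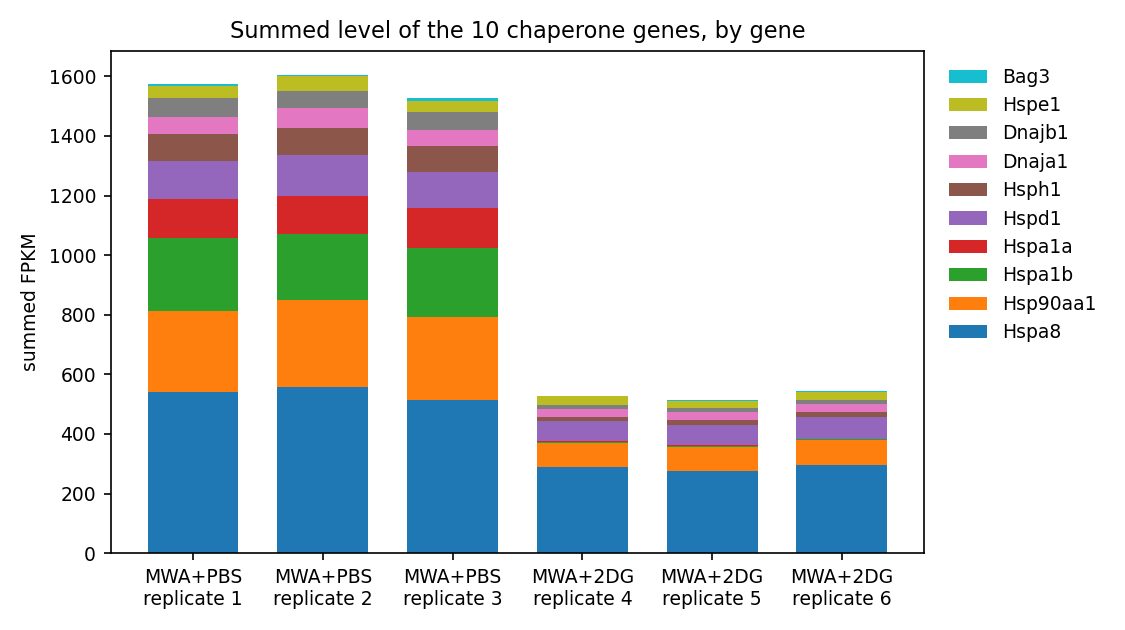
Summed FPKM of the 10 chaperone genes in each sample as bars stacked by gene, on a linear axis that starts at 0. The MWA+PBS bars reach 1526 to 1606 and the MWA+2DG bars 514.2 to 543.9, and the segments of Hspa1a and Hspa1b nearly vanish in the latter.

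The other genes of the chaperone system were compared next, from a list of 93 genes, of which 90 were in the files and 78 passed the filter on low values. Of these 78, 31 were lower (39.7%) and 6 were higher (7.69%) in MWA+2DG when called at an adjusted p under 0.05 in limma, and 41 were not called. Over all tested genes, 17.1% were lower and 22.3% were higher by the same rule. With values scaled to T lineage genes, a setting described below, these shares of all tested genes were 65.5% and 4.31%. The median log2 fold change of the 78 was -0.10, against 0.05 over all tested genes. The groups are described in turn, with counts and medians in place of a test of each list.

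**Figure D3:**
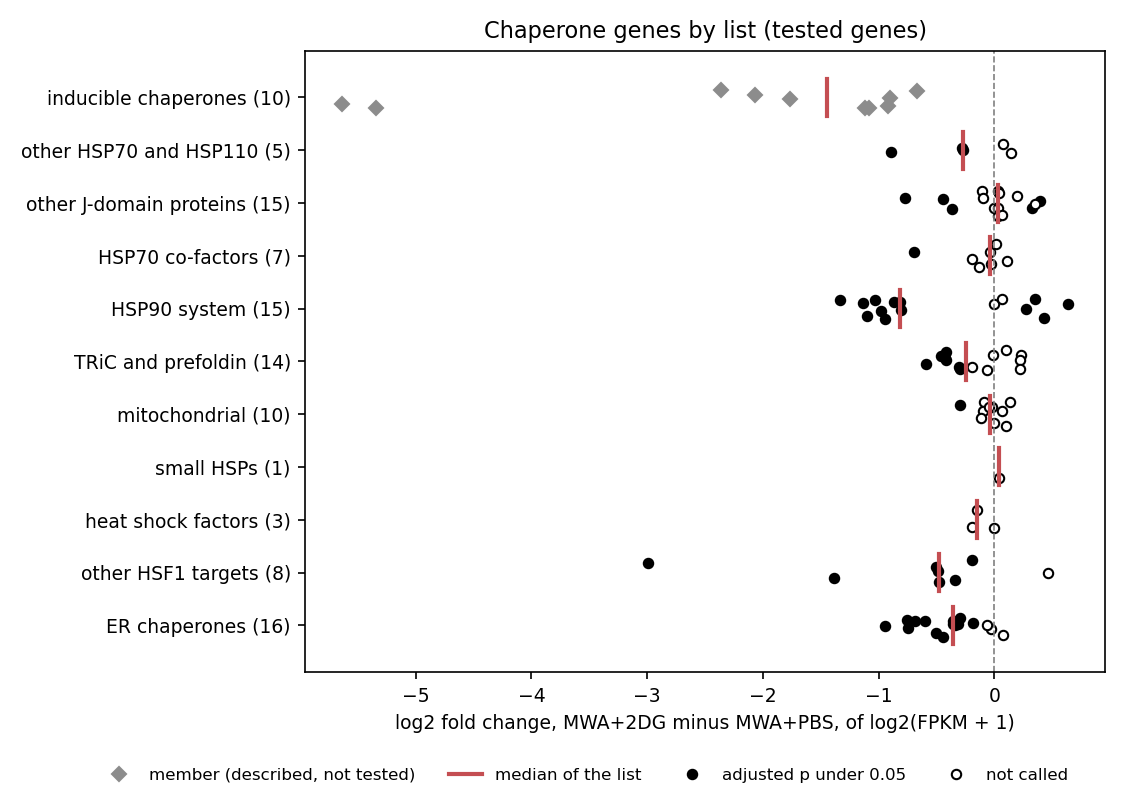
Log2 fold change (MWA+2DG minus MWA+PBS, of log2(FPKM + 1)) of each tested chaperone gene, in rows by list with the number tested in brackets. Filled points had a limma adjusted p under 0.05, open points were not called, gray diamonds are the 10 described without a test and bars are list medians, which lie at -1.44 for the 10, -0.81 for the HSP90 system and 0.03 for the other J-domain proteins.

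The HSP90 system, which holds the co-chaperones that load, time and release HSP90, had 9 of 15 tested genes lower and 4 higher, and the count of higher genes was 2 without MWA+PBS replicate 1 or MWA+2DG replicate 6 and 1 with values scaled to T lineage genes. Stip1, the adaptor that passes clients from HSP70 to HSP90, was 195.0 to 216.0 FPKM in MWA+PBS against 77.7 to 82.5 in MWA+2DG, a log2 difference of -1.33 ± 0.06 (SE, limma adjusted p = 4.84e-06). Ahsa1, which activates the HSP90 ATPase, fell by 1.14 on the log2 scale (limma adjusted p = 6.02e-05). The higher genes were led by Cdc37l1, with 0.64 (limma adjusted p = 0.000182), and Ttc4, with 0.43 (limma adjusted p = 0.0107), which became -0.006 with values scaled to T lineage genes. Cdc37, the kinase adaptor, was 23.0 ± 0.493 and 22.9 ± 0.864 FPKM in MWA+PBS and MWA+2DG (limma adjusted p = 0.933). With values scaled to T lineage genes Cdc37 was called lower (-0.47, limma adjusted p = 0.000337). The median over the 15 was -0.81.

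Among the relatives of the HSP70 and HSP110 genes, 3 of 5 tested genes were lower and 0 were higher. Hspa4l and Hspa4 are HSP110 relatives of Hsph1. Hspa4l was 6.74 ± 0.283 FPKM in MWA+PBS against 3.16 ± 0.113 in MWA+2DG, with a log2 difference of -0.90 (limma adjusted p = 4.89e-05). Hspa4 fell by 0.27 (limma adjusted p = 0.00373). Hspa13 fell by 0.28 with a limma adjusted p of 0.0497, and it was not called when MWA+PBS replicate 1 or 3 or MWA+2DG replicate 4 or 6 was left out (limma adjusted p = 0.14, 0.12, 0.147 and 0.11). Hspa1l, a testis HSP70 whose gene lies beside Hspa1a and whose transcript is 84.2% identical to it, was 1.26 ± 0.163 and 1.51 ± 0.200 FPKM (limma adjusted p = 0.3). Hspa2 was under the filter, at 0.983 ± 0.371 FPKM in MWA+PBS against 0.390 ± 0.166 in MWA+2DG.

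J-domain proteins beyond Dnajb1 and Dnaja1 gave 3 lower and 2 higher of 15 tested genes, with a median of 0.03, and 12 lower and 0 higher with values scaled to T lineage genes. The count of higher genes in this family was 1 without MWA+PBS replicate 3 or without any one of the MWA+2DG replicates. Dnajb4, a close relative of Dnajb1, fell by 0.77 (limma adjusted p = 0.000204) and Dnajb2 fell by 0.45 (limma adjusted p = 0.0115). Dnajc7 rose by 0.39 (limma adjusted p = 0.00549), and Dnajc7 was -0.074 with values scaled to T lineage genes. Dnajb5 rose by 0.33 (limma adjusted p = 0.0311), a call lost when MWA+PBS replicate 2 or 3 was left out (limma adjusted p = 0.0602 and 0.0869) or MWA+2DG replicate 4, 5 or 6 (limma adjusted p = 0.0786, 0.0729 and 0.085), and its value was -0.007 with that scaling. Of the co-factors of HSP70, 1 of 7 was lower (2 without MWA+PBS replicate 3, and 7 with that scaling), St13, with a log2 difference of -0.69 (limma adjusted p = 7.26e-05). St13 encodes HIP, which holds HSP70 in its client-bound state.

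TRiC, the cytosolic chaperonin that folds actin and tubulin, and prefoldin, which feeds it, were listed together. Of their 14 tested genes 7 were lower and 0 higher, and all 7 encode subunits of TRiC, whereas 12 were lower with values scaled to T lineage genes. The count of higher genes was 1 without MWA+PBS replicate 2, where Vbp1 was called at 0.34 (limma adjusted p = 0.0167), and 1 without MWA+2DG replicate 6, where Pfdn5 was called at 0.29 (limma adjusted p = 0.0326). Both encode prefoldin subunits, and Pfdn5 was called lower, at -0.25, with the T lineage scaling (limma adjusted p = 0.0166). Cct6a was 53.9 ± 1.80 FPKM in MWA+PBS against 35.4 ± 0.970 in MWA+2DG (limma adjusted p = 0.000117), and Tcp1 fell by 0.46 (limma adjusted p = 0.000525). Cct2, the remaining TRiC subunit, was 121.1 ± 12.8 and 105.5 ± 6.31 FPKM (limma adjusted p = 0.107). It was called lower with scaling to T lineage genes (-0.67, limma adjusted p = 0.000149), by median ratios (-0.25, limma adjusted p = 0.0367) and by quantiles (-0.23, limma adjusted p = 0.0364).

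Mitochondrial chaperones and proteases other than Hspd1 and Hspe1 had 1 of 10 genes lower and 0 higher, but 10 of 10 lower with values scaled to T lineage genes, so the count rests on the scale. With that scaling 65.5% of all tested genes were lower. The gene called without that scaling was Hspa9, the mitochondrial HSP70, at 64.7 ± 3.12 FPKM in MWA+PBS against 52.4 ± 0.326 in MWA+2DG, a log2 difference of -0.30 (limma adjusted p = 0.00368). The ratio of Hspd1 to Hspa9 was 1.96 to 2.06 in MWA+PBS against 1.25 to 1.36 in MWA+2DG. Trap1, the mitochondrial HSP90, was 41.7 ± 3.40 and 41.8 ± 2.73 FPKM (limma adjusted p = 0.99), and was called lower with that scaling (-0.47, limma adjusted p = 0.000312).

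Of the heat shock factors Hsf1 and Hsf2 were tested and neither was called, but both were called lower with values scaled to T lineage genes. Hsf1 was 8.47, 8.55 and 8.30 FPKM in MWA+PBS, and 8.92, 8.02 and 8.35 FPKM in MWA+2DG, which overlap, with a log2 difference of -0.003 ± 0.06 (SE, limma adjusted p = 0.975). Hsf2 was 2.09 ± 0.400 and 1.70 ± 0.216 FPKM (limma adjusted p = 0.245). Hsbp1, listed with them, encodes a protein that binds HSF1, and was 17.6 ± 1.38 and 15.8 ± 1.88 FPKM (limma adjusted p = 0.259, and 0.000312 with that scaling). HSF1 is known to be switched on by release and modification of the protein, which RNA levels do not show. Of the small heat shock proteins 7 were in the files and 1 passed the filter, Hspb6, which was 1.02 ± 0.516 and 1.05 ± 0.314 FPKM (limma adjusted p = 0.895).

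Among 8 further genes known as HSF1 targets, 7 were lower and 0 higher, with a median of -0.48. Hmox1, the heme oxygenase, was 229.2, 211.2 and 223.2 FPKM in MWA+PBS, and 27.5, 25.2 and 28.1 FPKM in MWA+2DG, a log2 difference of -2.99 ± 0.06 (SE, limma adjusted p = 1.87e-07). Hmox1 is also a gene of heme-recycling macrophages. Serpinh1, which encodes a collagen chaperone, was 0.65, 2.20 and 0.59 FPKM in MWA+PBS, and 1.81, 1.50 and 2.16 FPKM in MWA+2DG, and was not called (limma adjusted p = 0.198). Replicate 2 of MWA+PBS stood above the other two, and without it Serpinh1 was called higher at 0.80 on the log2 scale (limma adjusted p = 0.00447), so that 1 gene of the 8 was higher.

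Chaperones of the endoplasmic reticulum, which answer to another stress pathway, were set beside these. Of 16 tested genes 13 were lower and 0 higher, with a median log2 fold change of -0.36. Sdf2l1 fell by 0.94 (limma adjusted p = 0.000329). Hspa5, the HSP70 of the reticulum, was 136.5 ± 8.47 FPKM in MWA+PBS against 80.4 ± 1.98 in MWA+2DG, a log2 difference of -0.75 (limma adjusted p = 8e-05). Lower chaperone transcripts were thus measured in this compartment as well.

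FPKM values depend on what else is in the library, so the values were also scaled to the geometric mean of 20 T lineage genes, which moved the median log2 fold change of all tested genes from 0.05 to -0.36. With this scaling 65.5% of all tested genes were lower and 4.31% higher, and of the 78 other chaperone genes 66 were lower and 1 was higher. The 10 chaperones then had log2 differences from -1.14 in Hspe1 to -6.07 in Hspa1b. Their order by log2 difference and their direction were as before. Hsf1 and Hsf2 were then called lower, at -0.43 and -0.51 (limma adjusted p = 0.000359 and 0.00763), close to the shift of all genes. Against Cd8a itself, Hspa8 was 2.27 to 2.36 times its level in MWA+PBS against 0.767 to 0.797 times in MWA+2DG, and Hsp90aa1 was 1.19 to 1.23 times and 0.222 to 0.226 times.

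Immediate early genes, which many stimuli raise within minutes, handling of cells among them, moved with the chaperones. Of 23 tested genes 16 were lower and 3 higher, with a median of -0.69, and their summed level was 770.1 to 827.5 FPKM in MWA+PBS against 387.7 to 405.8 in MWA+2DG. Jun was 79.9, 74.8 and 74.2 FPKM in MWA+PBS, and 8.54, 7.19 and 6.97 FPKM in MWA+2DG, a log2 difference of -3.18 (limma adjusted p = 3.56e-07). Fosb fell by 3.06 (limma adjusted p = 8.54e-07). Dusp2 rose by 0.70 (limma adjusted p = 0.00459), which was 0.24 and not called with values scaled to T lineage genes (limma adjusted p = 0.0962). Egr3 rose by 0.43 (limma adjusted p = 0.0202), a call lost without MWA+2DG replicate 4 or 5 (limma adjusted p = 0.0557 and 0.0653). With that scaling 20 of the 23 were lower and 0 higher, and without MWA+2DG replicate 5 only 1 was higher. Their part in the result was not tested.

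Proliferation genes were lower in 24 of 25 tested genes, with a median of -0.75 and a summed level of 312.6 to 337.4 FPKM in MWA+PBS against 206.4 to 216.8 in MWA+2DG. Aurkb fell by 1.05 (limma adjusted p = 0.000204), Tpx2 fell by 0.995 (limma adjusted p = 0.000164), and Mki67 was 34.2 ± 2.56 and 19.1 ± 1.13 FPKM (limma adjusted p = 0.000127). The part of dividing cells in the chaperone levels was not tested.

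Markers of other cell types differed strongly and in both directions. Macrophage markers were lower in 14 of 14 tested genes, with a summed level of 631.3 to 684.3 FPKM in MWA+PBS against 99.3 to 105.7 in MWA+2DG, and Adgre1, which encodes F4/80, was 31.4 ± 0.288 and 4.60 ± 0.217 FPKM (limma adjusted p = 1.87e-07). Erythroid genes were lower in 10 of 10, with sums of 310.1 to 366.1 and 81.1 to 97.4 FPKM, and Hbb-bs was 96.9 ± 16.2 and 24.4 ± 6.10 FPKM (limma adjusted p = 0.000216).

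Neutrophil genes went the other way, with 11 of 12 higher and sums of 67.0 to 91.9 FPKM in MWA+PBS against 1596 to 1777 in MWA+2DG, and S100a8 was 5.31 ± 2.17 and 136.3 ± 12.4 FPKM (limma adjusted p = 8.86e-06). B cell genes were higher in 10 of 11, from sums of 12.7 to 13.9 FPKM to 63.9 to 68.4 FPKM, and Cd79a was 1.22 ± 0.261 and 12.5 ± 1.48 FPKM (limma adjusted p = 5.31e-06). T lineage genes were higher in 19 of 20, from sums of 2292 to 2451 FPKM to 3254 to 3508 FPKM, and Cd8a itself had a log2 difference of 0.66 (limma adjusted p = 8.94e-05). No gene of these lists was at 0 in all samples. The part of each cell type in the chaperone levels was not tested.

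**Figure D4:**
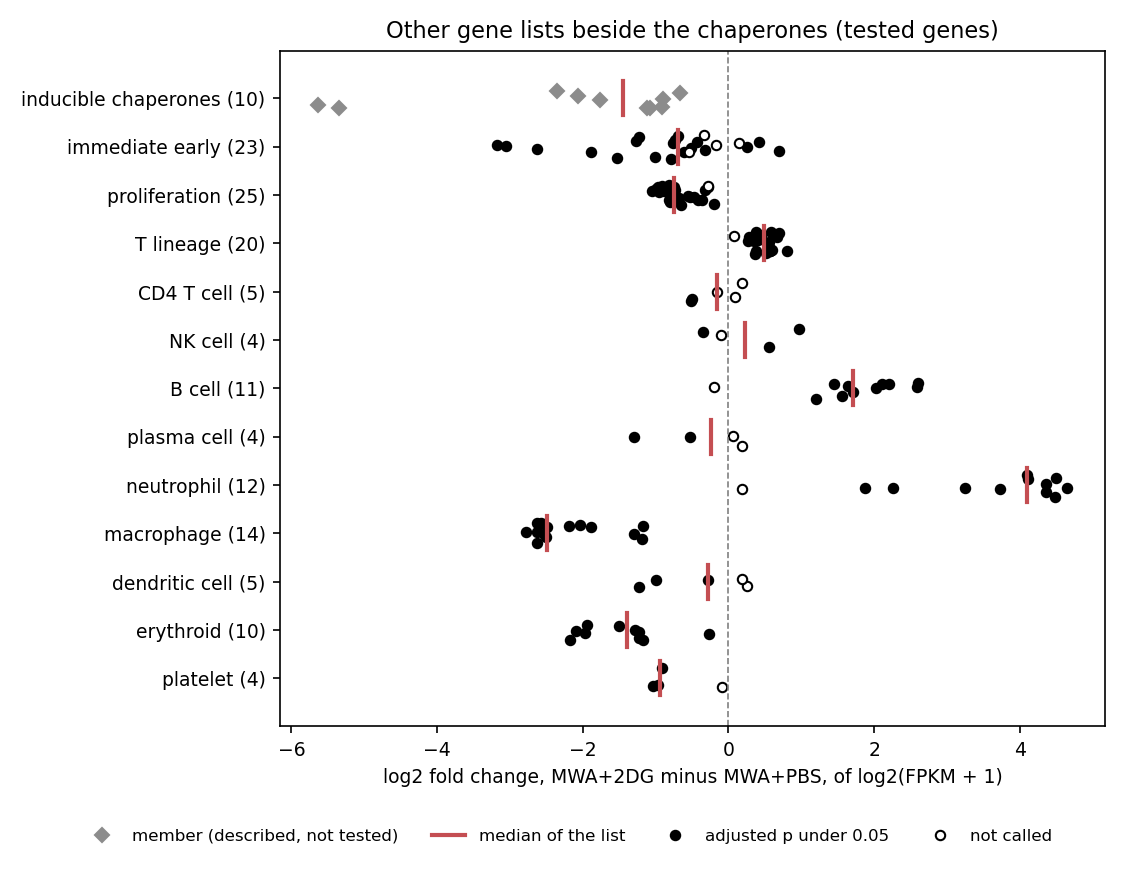
Log2 fold change (MWA+2DG minus MWA+PBS, of log2(FPKM + 1)) of tested genes in lists beside the chaperones, with the number tested in brackets, filled points for a limma adjusted p under 0.05 and bars for medians. Medians run from -2.50 for macrophage genes to 4.10 for neutrophil genes. The inducible chaperones have a negative median, like the immediate early, proliferation, macrophage and erythroid genes. Platelet, dendritic cell, plasma cell and CD4 T cell genes also have negative medians.

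Smaller lists gave mixed counts. Plasma cell genes were lower in 2 of 4, dendritic cell genes in 3 of 5, platelet genes in 3 of 4 and CD4 T cell genes in 2 of 5, with 0 higher in these. NK cell genes were lower in 1 of 4 and higher in 2.

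The genes whose pattern was most like that of the chaperones were sought by the Euclidean distance, over the 6 samples, of log2(FPKM + 1) less its own MWA+PBS mean. The 5 nearest to the mean of the 10 were Ccr3, Prss34, Sirpa, Pira2 and Tgm2, at distances of 0.12 to 0.205 and with log2 fold changes of -2.10 to -2.23, against -2.19 for that mean. Hspa1a and Hspa1b draw that mean down, and the median of the 10 was -1.44. The mean of Hspa1a and Hspa1b was -5.49, and no tested gene outside the 10 came near it. The least distant were Jun, Fosb, Hmox1, Itgad and C1qb, at distances of 4.01 to 4.70 and with log2 fold changes of -2.78 to -3.18. Such distances mostly rank genes by the group difference on which the 10 were chosen, so nothing is read from them on shared regulation.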

How the data were processed

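Poly(A) RNA of 6 splenic CD8+ T cell samples was made into strand-marked libraries with molecular identifiers. The authors checked reads with fastp, aligned them with HISAT2, and assembled and quantified transcripts with StringTie and ballgown, and deposited FPKM per gene with at most 2 decimals. The submitters' processing notes also name cutadapt 1.9, HISAT2 2.0.4, StringTie 1.3.4d, UMI-tools and the build mm9. The sources used here do not state whether strand or identifiers were used in counting. FPKM is a share of each library, so a rise of some transcripts lowers others.

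Symbols came from the GENCODE M21 gene table (28689 of 28773 IDs). Values were fitted as log2(FPKM + 1) with limma 3.58.1 in R 4.3.3 (lmFit, eBayes with trend, two-sided, no covariates) over the 12444 genes with a mean FPKM of at least 1, with Benjamini-Hochberg adjustment over all of them and calls at an adjusted p under 0.05. The script was tested on simulated data. Fold changes on this scale understate those of low genes. No step of whole reads was found in the values, so depth and counting error are unknown. Promoters were RefSeq sequences of GRCm38.p6, a build other than mm9, used for letters only. Transcript identity was computed with BLAST 2.17.0 on GENCODE M21 transcripts.

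The 10 genes and all lists were chosen with earlier results of these data known. Named genes were the 10, the 2 largest called decreases and increases of each chaperone, immediate early and proliferation list, fixed relatives and cell type markers, the 5 most alike genes, and annotated copies. A further gene that this rule names is not reported here. Cdc37, Trap1, Cct2, Pfdn5, Vbp1, Hsbp1, Serpinh1, Hspb6 and the antisense gene were named after their values were seen. Of the listed genes 5 were not found by symbol. Alternatives were another pseudocount (0.1), no filter or a filter at a mean of 5 FPKM, scaling by quantiles, by median ratios, by T lineage genes or by totals that leave out genes of mitochondria, ribosomal proteins, immunoglobulins and haemoglobins, eBayes with no trend, sample weights from arrayWeights, calls only beyond a log2 fold change of 1, and each sample left out in turn.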

Additional observations from a re-analysis of the deposited data

How the results depend on the processing

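The direction of the 10 chaperones held under each alternative that gave them a value (Bag3 was under the filter at a mean FPKM of at least 5), with log2 differences from -5.28 to -5.80 for Hspa1a and from -0.59 to -1.14 for Hspe1. The log2 ratio of their summed FPKM, -1.57, became -1.62 with median ratio scaling and -2.05 when scaled to T lineage genes. The count of all tested genes called, 4907, became 2951 at a mean FPKM of at least 5, where fewer genes were tested, and 8685 when scaled to T lineage genes. Of the other chaperone genes, 31 lower became 66 with that scaling and 6 with a log2 fold change beyond 1, and 6 higher became 1 and 0, and the lower share of calls went from 83.8% to 98.5% with that scaling. Leaving out each sample gave 27 to 31 lower and 4 to 9 higher. Scaling to T lineage genes turned Dnajc7 to -0.074, Dnajb5 to -0.007, Ttc4 to -0.006 and Hspa1l to -0.132. Hsf1, at -0.003, was 0.008 with arrayWeights and -0.040 to 0.029 with a sample left out, above 0 without MWA+PBS replicate 2 or MWA+2DG replicate 5 or 6. Of the other values of genes outside the 10 that were named by rule, 488 kept their direction and side of the threshold, 19 lost the call and 2 gained it, for Hsf1 and Hsf2 when scaled to T lineage genes. Of the genes named after their values were seen, Cdc37 at -0.47, Trap1 at -0.47 and Cct2 at -0.67 were also called lower with that scaling, Cct2 also with median ratio scaling and quantile normalization. Hspb6 turned from 0.04 to -0.19 and Serpinh1 went from 0.47 to 0.20 when scaled to T lineage genes, and neither was called. Serpinh1 and Vbp1 were also called higher with arrayWeights, and Pfdn5 with quantile normalization and with the scaling that left out mitochondrial and other abundant genes. The count of lower HSP70 co-factors was also 2 with arrayWeights, median ratio scaling and no filter, that of higher J-domain genes 1 with no filter, and at a mean FPKM of at least 5, where fewer genes were tested, the lower counts were 1 for HSP70 and HSP110 genes, 1 for J-domain genes and 14 for proliferation genes. No paired analysis was possible because the replicate numbers 1 to 3 and 4 to 6 are not shared between the groups. The unknown depth limits what can be said of low genes such as Bag3 and of Hspa1a in MWA+2DG.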
